A study of Mus musculus with 22 samples.

Results

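The difference between the effect of losing GRTH and the effect of changing it was measured over miRNAs of round spermatids (RS), germ cells that have passed through meiosis and not yet begun to elongate. GRTH, also named DDX25, is an RNA helicase of the testis. The KO effect is the log2 fold change of knock-out libraries against the wild type (WT) libraries of the same experimental batch, the KI effect is that of knock-in libraries against the WT libraries of theirs, and the difference is the KO effect minus the KI effect. It was taken over all 22 of the 22 miRNA-seq libraries of the series. The KO batch held 5 WT and 5 KO libraries, and the KI batch held 6 WT and 6 KI libraries, all from testes of mice aged 75 to 85 days. The KO mice lack GRTH. The KI mice carry a human GRTH gene with a single changed amino acid, and in their germ cells the phosphorylated form of the protein is missing while the other form is kept. RS do not elongate in either mutant. RS were settled on an albumin gradient and their purity was judged by nuclear staining, so other testis cells can remain, and the labels do not say how many animals gave a library or whether libraries of a group came from separate animals. The p-values therefore measure only the spread between these libraries, which may be technical. The mutants were never in the same batch, so an influence of the batch that acts on mutant and WT libraries unequally cannot be told apart from the mutation.

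A miRNA is cut from a long transcript as a hairpin by Drosha with DGCR8 in the nucleus, exported, and cut again by Dicer into a pair of strands, the 5p and the 3p arm. An Argonaute protein keeps mostly a single arm and uses its seed, bases 2 to 8, to find target mRNAs. In RS, Argonaute proteins, miRNAs and helicases gather in the chromatoid body, a granule beside the nucleus, and GRTH carries mRNAs from the nucleus to it. Levels of the GRTH transcript, an mRNA, were not analysed here, so the genotypes rest on the labels.

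The mature sequences of the miRNAs on which the comparison turns are given first, from RefSeq on GRCm38.p6, 5′ to 3′, with the seed in capitals. Of 48 names whose libraries were listed 1 by 1, 35 had an entry. The first set had the lowest p among miRNAs with the higher KO effect, together with miR-7217-3p, the example of a numbered group described with it.
miR-7221-5p: cGUCUCUUggucacagguggg
miR-7221-3p: uGACUGUGggcuggggacugg
miR-7214-3p: cUCAGUCCugaccccuugagcgca
miR-7217-3p: uGAGAACCcacaagcaagaaga
miR-342-3p: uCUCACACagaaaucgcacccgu
miR-503-5p: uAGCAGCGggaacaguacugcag
miR-449c-5p: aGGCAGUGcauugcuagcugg
The second set holds those with an entry among the 6 miRNAs with the lowest p and the higher KI effect, of which miR-124-3p, miR-669m-5p, miR-669b-5p and miR-297a-3p had none.
miR-139-5p: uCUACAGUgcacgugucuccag
miR-295-3p: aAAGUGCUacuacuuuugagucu
The third set changed in the same direction in both mutants.
miR-138-5p: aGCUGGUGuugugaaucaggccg
miR-140-3p: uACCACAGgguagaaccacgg
miR-10b-5p: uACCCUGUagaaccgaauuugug
miR-196a-5p: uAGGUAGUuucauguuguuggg
miR-7b-5p: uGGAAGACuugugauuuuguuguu
The last set shares a seed with miR-449c-5p and is shown for comparison with it.
miR-449a-5p: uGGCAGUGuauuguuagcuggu
miR-34b-5p: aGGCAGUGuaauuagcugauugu
miR-34a-5p: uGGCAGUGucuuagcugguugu

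On GRCm38, miR-7221-5p is at chr2:92592206-92592226 and miR-7221-3p at chr2:92592257-92592277, on the plus strand between annotated genes. miR-7214-3p, at chr17:27317035-27317058 on the minus strand, lies in an intron of the lincRNA Gm49793, and miR-7217-3p, at chr17:27355778-27355799, in an exon of the lincRNA Gm49794. miR-342-3p, at chr12:108658680-108658702, lies in an intron of Evl. miR-503-5p, at chrX:53054027-53054049 on the minus strand, lies outside annotated host genes beside miR-322-5p at chrX:53054306-53054327. miR-449c-5p, at chr13:113036008-113036028, and miR-449a-5p, at chr13:113037549-113037570, lie in introns of Cdc20b. miR-34b-5p, at chr9:51103610-51103632 on the minus strand, runs against an intron of Btg4, and miR-34a-5p, at chr4:150068473-150068494, lies between genes. miR-139-5p, at chr7:101475382-101475403, lies in introns of Pde2a and Gm45837, and miR-295-3p, at chr7:3220815-3220837, lies against an exon of Nlrp12. miR-140-3p, at chr8:107551288-107551308, lies in an exon of Wwp2, and miR-10b-5p, at chr2:74726074-74726096, in introns of Hoxd3 and Hoxd4. miR-138-5p was counted at chr8:94324312-94324334 and chr9:122682898-122682920, and miR-196a-5p at chr11:96265187-96265208 and chr15:102973365-102973386, the second of these in an intron of Hoxc5. miR-7b-5p is at chr17:56243017-56243040, between genes.

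Of 1966 mature names, 421 had enough counts to be tested. Total counts were 559957 to 1081333 in the libraries of the KO batch and 2067322 to 3239357 in those of the KI batch, so the KO effect was measured with less depth. A miRNA with 3 counts, taken as the least that the depth can show, stands at 5.36 CPM in the shallowest library and 0.926 CPM in the deepest (CPM are counts scaled to the library size with TMM factors), and these floors cover counting error only. The median standard error over the 421 miRNAs was 0.21 for the KO effect, 0.17 for the KI effect and 0.27 for the difference, on the log2 scale. KI replicate 2 correlated least with the other libraries of its group, with a mean Pearson r over miRNAs of 0.984 against up to 0.991, and WT replicate 2 of the KI batch did so in its group, at 0.988 against up to 0.993. The count of calls for the difference, and the values of some named miRNAs, are given with and without them. The germ cell markers miR-34c-5p, miR-34b-5p and miR-449a-5p summed to 185957 to 226744 CPM in WT and 159662 to 215133 CPM in KO libraries of the KO batch. In the KI batch they summed to 357630 to 411481 CPM in WT and 330631 to 378661 CPM in KI libraries, and the groups overlapped in both batches. Markers of smooth muscle and stroma summed to 634 to 4778 CPM, those of blood and immune cells to 2995 to 6271 CPM, and miR-122-5p, the marker of liver, to at most 2.83 CPM. Bulk values cannot tell fewer cells of a type from less RNA per cell.

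With all 22 libraries in the 4 groups, no miRNA passed the test of the difference. At an adjusted p under 0.1 (edgeR quasi-likelihood test, Benjamini-Hochberg over the 421 miRNAs), 0 of 421 miRNAs (0%) were called, and the lowest adjusted p was 0.202. At an unadjusted p under 0.05, 67 miRNAs (15.9%) stood out, where 21.05 would pass by the threshold alone, 38 of them (9.03%) with the higher KO effect and 29 (6.89%) with the higher KI effect. DESeq2 also called 0, with 71 at an unadjusted p under 0.05 and a lowest adjusted p of 0.108, near the threshold. With limma voom 0 were called, with 68 at such a p and a lowest adjusted p of 0.222. The count was not stable to the libraries entered, nor to a fit with the replicate number as a block, given with the processing. Without KI replicate 2 26 miRNAs were called, 20 with the higher KO effect and 6 with the higher KI effect. With the higher KO effect they took in miR-7221-5p, miR-7221-3p, miR-7214-3p, miR-7217-3p, miR-7216-5p, miR-449c-5p, miR-342-3p and miR-320-3p. With the higher KI effect they took in miR-124-3p, miR-669m-5p, miR-669b-5p, miR-139-5p and miR-142a-3p. The adjusted p of these names were 0.0621 to 0.0713 (edgeR). Without WT replicate 1 of the KI batch 1 was called, with the higher KI effect. Without KI replicate 2 and WT replicate 2 together, 0 were called again, with a lowest adjusted p of 0.110 (edgeR), near the threshold.

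Each effect on its own was called for as many miRNAs. KO libraries differed from WT for 152 miRNAs (36.1%), of which 68 rose (16.2%) and 84 fell (20%). KI libraries differed for 152 miRNAs as well (36.1%), of which 65 rose (15.4%) and 87 fell (20.7%). A total of 86 miRNAs were called in both, which is 56.6% of either list, and every 1 of the 86 moved in the same direction, 29 up and 57 down. The size of the KO effect exceeded that of the KI effect in 63 of the 86, and the median sizes were 0.56 and 0.43 on the log2 scale. The 2 contrasts share no library. Scaled by library totals alone, the median of all KO effects moved from 0.02 to 0.16 and that of all KI effects from 0.00 to 0.11, and the calls became 117 up and 49 down in KO and 92 up and 50 down in KI.

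Calls in a single mutant did not by themselves show a difference. Of 66 miRNAs called in KO only, 47 had a KI effect of the same sign, and of 66 called in KI only, 51 had a KO effect of the same sign. The difference had an unadjusted p under 0.05 for 35 of the 66 called in KO only, for 15 of the 66 called in KI only and for 7 of the 86 called in both. Over all 421 miRNAs the share with such a p was 15.9%. All 19 miRNAs called in KO only whose KI effect had the opposite sign were among the 35. Of the 15 called in KI only whose KO effect had the opposite sign, 9 had such a p. The difference holds the called effect, and an opposite sign in the other mutant enlarges it, so these counts are no separate evidence. Over the 421 miRNAs the KO and KI effects had a Pearson r of 0.56 and a Spearman rho of 0.56, and over the 318 miRNAs with at least 10 CPM in a group of each batch these were 0.64 and 0.62. These are descriptions over miRNAs, which share libraries and are not replicates.

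**Figure D1:**
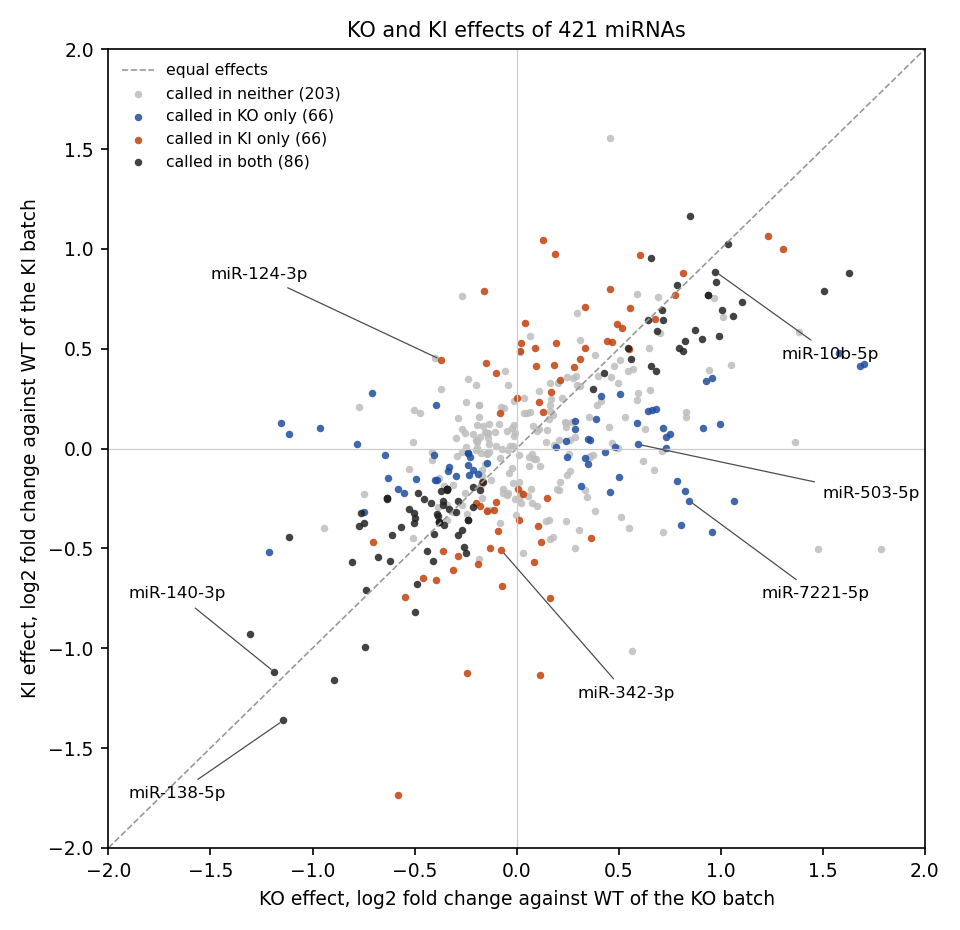
Log2 fold change of each of the 421 tested miRNAs in KO (x axis) and in KI (y axis), each against the WT libraries of its own batch, coloured by the contrasts in which it was called at an adjusted p under 0.1. The 86 miRNAs called in both have the same sign on both axes, and no point lies far enough from the dashed line of equal effects to pass the test of the difference.

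How far the absence of calls reaches is shown by the intervals. The 95% interval of the difference lay within -1 to 1 on the log2 scale for 263 of the 421 miRNAs and within -0.5 to 0.5 for 105, and for 158 it reached past 1 or -1. The SD of the difference over the 421 miRNAs was 0.45, beside a root mean square standard error of 0.37. Among the 318 more abundant miRNAs the SD was 0.38 beside 0.26, and 252 of the intervals lay within -1 to 1. A difference of 1 or more was thus not left out by the intervals of many of the scarcer miRNAs.

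Among miRNAs with the higher KO effect, miR-7221-5p had the lowest p. Its CPM in WT libraries of the KO batch were 62.8, 104, 103, 122 and 133, and in KO libraries 144, 167, 271, 195 and 167. The lowest, median and highest CPM in the KI batch were 114, 131 and 199.6 in WT and 60.6, 124 and 169 in KI. The KO libraries all lay above the WT libraries of their batch, while KI and WT libraries overlapped. miR-7221-5p rose in KO by 0.85 ± 0.24 (SE, edgeR, adjusted p = 0.0114), its KI effect was -0.26 ± 0.21 (adjusted p = 0.375), and the difference was 1.11 ± 0.32 (SE), with a 95% interval of 0.45 to 1.77. The other arm, miR-7221-3p, had a KO effect of 0.81 ± 0.31 and a KI effect of -0.39 ± 0.25, and a difference of 1.19 ± 0.39 (SE), at CPM of 9.64 to 48.0 over all libraries. The 12 miRNAs named for a low p of the difference had the same adjusted p of 0.202 in edgeR.

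The plot of CPM by library shows KI replicate 2 as the highest KI library for this miRNA and for miR-7217-3p. For miR-7217-3p, KI replicate 2 held 1746 CPM, the highest of its group, whose lowest and median were 527 and 916 CPM, and WT replicate 2 of the KI batch held 1621 CPM, the highest of the WT libraries. miR-7217-3p stood at 689.6, 1058, 777, 1246 and 1263 CPM in WT and at 1217, 1538, 2707, 1798 and 1665 CPM in KO libraries of the KO batch, so that 1 KO library lay within the range of WT. Its KO effect was 0.83 ± 0.27 (edgeR, adjusted p = 0.0261), its KI effect -0.21 ± 0.24 (adjusted p = 0.54) and the difference 1.04 ± 0.36 (SE). Without KI replicate 2 the difference of miR-7217-3p was 1.28 (edgeR, adjusted p = 0.0621) and that of miR-7221-5p 1.23 (adjusted p = 0.0621). miR-7214-3p had a difference of 0.65 ± 0.22 (SE), from a KO effect of 0.50 ± 0.16 (edgeR, adjusted p = 0.0236) and a KI effect of -0.14 ± 0.15, and 0.76 without KI replicate 2 (adjusted p = 0.0621).

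These 3 hairpins belong to a run of numbered names, miR-7210 to miR-7243, which was picked out as a list only after the values had been seen, so that no test is given for it. Of its 64 names, 31 from 16 hairpins on 9 chromosomes were tested. In KO 16 of the 31 rose and 0 fell, in KI 0 rose and 2 fell, and the difference had an unadjusted p under 0.05 for 18 of the 31. Of all 421 miRNAs, 16.2% rose in KO, 20.7% fell in KI and 15.9% had such a p. The median of the 31 was 0.33 for the KO effect, -0.05 for the KI effect and 0.33 for the difference, where over all 421 miRNAs the medians were 0.02, 0.00 and 0.02. The difference lay above 0 for 31 of 31, against 222 of 421 miRNAs (52.7%). The 31 names moved together across libraries, with a Pearson r of 0.42 to 0.96 between the deviations of miR-7217-3p and those of each other name from the group means, so they are far fewer than 31 independent measurements. With size factors of DESeq2 it lay above 0 for 30, with TMM within each batch for 29, and with library totals for 31. The KI calls became 2 rises and 1 fall with TMM within each batch and 4 rises and 1 fall with library totals, where the KI median was 0.01 and 0.06. Of all 421 miRNAs, 79 rose and 68 fell in KI with the first of these scalings, and 92 rose and 50 fell with the second. The median of the 31 was 0.40 without KI replicate 2 and 0.32 without both libraries numbered 2 of the KI batch.

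The names of this run did not share a seed. All 28 of those with a RefSeq sequence had a seed of their own, and the largest difference was that of miR-7216-5p, at 1.33 ± 0.48 (SE), and the smallest that of miR-7241-5p, at 0.04. Summed over the 31 names, CPM ran from 37586 to 46353 in WT libraries and from 46841 to 58703 in KO libraries of the KO batch, which did not overlap. In the KI batch the sums ran from 46650 to 60574 in WT and from 42923 to 60368 in KI, which overlapped. In 12 of the 15 hairpins with both arms tested, the arm with the lower mean CPM had the larger difference. Among these the arms were close in miR-7221, at 1.11 and 1.19, and in miR-7232, at 0.30 and 0.32. The same count was not taken over hairpins outside this run, so it is not shown to be particular to it. For miR-7217 the 3p arm, at a mean of 1213 CPM, had a difference of 1.04, and the 5p arm, at 5285 CPM, 0.29 ± 0.12 (SE). For miR-7214 the values were 0.65 for the 3p arm at 1579 CPM and 0.18 for the 5p arm at 9452 CPM. The 33 names that were not tested held at most 54 counts each over all libraries, 20 of them 0.

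**Figure D2:**
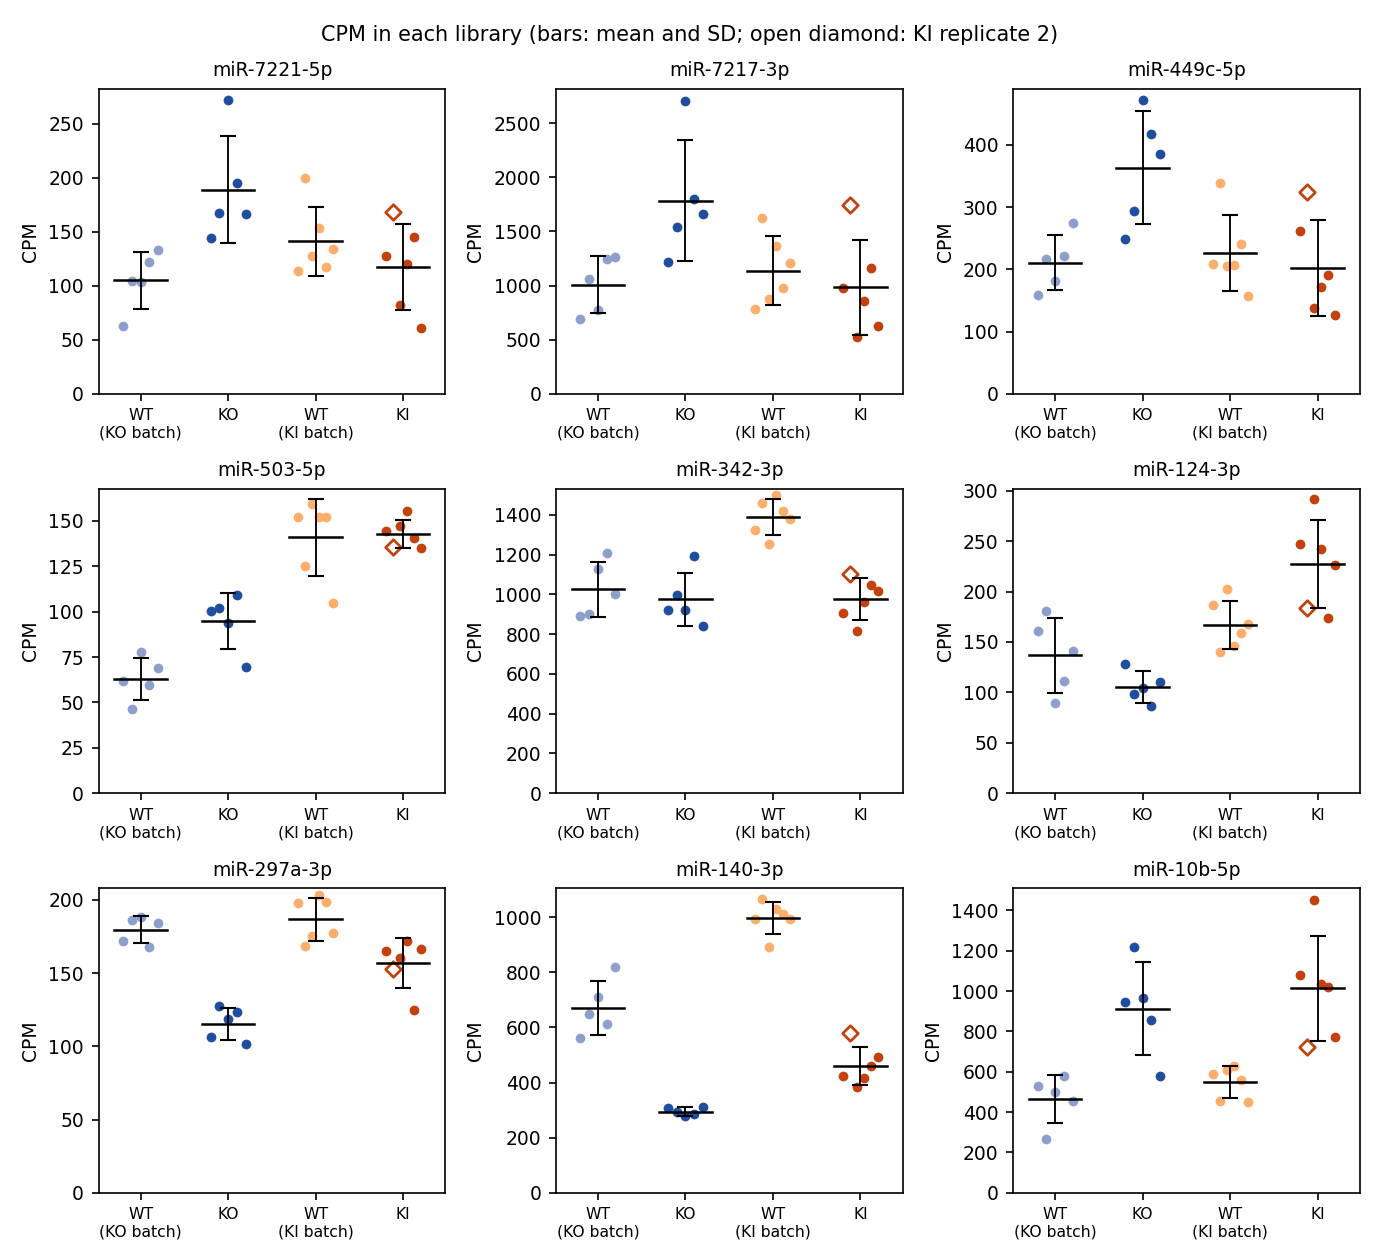
CPM of 9 miRNAs in each library (y axis from 0, points), by group (x axis), with the mean and SD of each group as bars and KI replicate 2 as an open diamond. KO libraries lie above WT for miR-7221-5p and below it for miR-140-3p and miR-297a-3p, and KI replicate 2 is the highest KI library for miR-7221-5p, miR-7217-3p, miR-449c-5p, miR-342-3p and miR-140-3p.

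miR-449c-5p belongs to the miR-34 and miR-449 family, which marks germ cells from meiosis on and is needed for the making of motile cilia. It stood at 159, 217, 181, 222 and 274 CPM in WT and 249, 293, 473, 418 and 386 CPM in KO libraries of the KO batch. Lowest, median and highest values in the KI batch were 158, 208 and 339 CPM in WT and 126, 181 and 324 CPM in KI. The lowest KO library lay below the highest WT library and the other KO libraries above it, while KI libraries reached from below the WT range to near its top. miR-449c-5p rose in KO by 0.79 ± 0.24 (edgeR, adjusted p = 0.0164), had a KI effect of -0.16 ± 0.21 (adjusted p = 0.602) and a difference of 0.95 ± 0.32 (SE), 1.13 without KI replicate 2.

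Names with the same seed as miR-449c-5p had smaller differences. miR-449a-5p, which lies beside miR-449c-5p, had a KO effect of -0.03 ± 0.06 and a KI effect of 0.01 ± 0.06, and its difference of -0.05 ± 0.08 (SE) had a 95% interval of -0.22 to 0.13. For miR-34b-5p the difference was -0.16 ± 0.15 (SE) and for miR-34c-5p -0.10 ± 0.10 (SE). miR-34a-5p fell in both mutants, by 0.50 in KO (edgeR, adjusted p = 0.0442) and by 0.82 in KI (adjusted p = 0.000946), with a difference of 0.32 ± 0.25 (SE). Over the 8 tested names of the family, 1 rose and 3 fell in KO, 1 rose and 1 fell in KI, where of all 421 miRNAs 16.2% rose and 20% fell in KO and 15.4% rose and 20.7% fell in KI, and the median difference was -0.07. With library totals 3 rose and 1 fell in KO and 2 rose and 1 fell in KI. Under that scaling 117 of all 421 miRNAs rose and 49 fell in KO, and 92 rose and 50 fell in KI. Whether miR-449c-5p differed from its kin was not tested.

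The 6 most abundant miRNAs of RS had standard errors of the difference of 0.08 to 0.15, where the median over the 421 was 0.27. miR-16-5p, a member of the miR-15 family that restrains the cell cycle, held 286893 ± 12406 CPM (SD, n = 5) in WT and 251643 ± 33312 CPM (SD, n = 5) in KO, and 355568 ± 23109.5 CPM (SD, n = 6) in WT and 325860.0 ± 20926 CPM (SD, n = 6) in KI. Its difference was -0.06 ± 0.10 (SE), with a 95% interval of -0.26 to 0.13. let-7a-5p, of the let-7 family of differentiation, fell by 0.16 in KO (edgeR, adjusted p = 0.0377) and by 0.17 in KI (adjusted p = 0.021), and its difference was 0.00 ± 0.08 (SE). Over the 4 scalings, the effects of let-7a-5p ran from -0.19 to -0.03 in KO and from -0.17 to -0.06 in KI, and the difference from -0.06 to 0.03. miR-19b-3p, of the miR-17 to miR-92 cluster that favours cell growth, had a difference of -0.19 ± 0.12 (SE) with an interval of -0.44 to 0.07. In miR-16-5p, miR-34c-5p, miR-34b-5p, miR-449a-5p, let-7a-5p and miR-19b-3p, the intervals left room for differences of no more than 0.47 on the log2 scale.

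miR-503-5p had a difference of 0.57 ± 0.18 (SE). It stood at 61.8, 46.6, 77.6, 59.6 and 69.0 CPM in WT and 100.4, 102, 93.8, 109 and 69.3 CPM in KO libraries of the KO batch, where the lowest KO library lay within the range of WT. In the KI batch its lowest, median and highest values were 105, 152 and 159 CPM in WT and 135, 142 and 155 CPM in KI, and these overlapped. It rose in KO by 0.59 ± 0.14 (edgeR, adjusted p = 0.00396) and its KI effect was 0.02 ± 0.12 (adjusted p = 0.906). The other arm, miR-503-3p, had a higher KI effect, 0.55 to 0.65 over the 4 scalings. Its KO effect was 0.88 to 1.05 and its difference 0.30 to 0.40, at CPM of 3.88 to 19.8. miR-503 is made from a single X-linked transcript with miR-322 and miR-351, and it is known for holding back the cell cycle.

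The 6 names of miR-322, miR-503 and miR-351 were then read as a list, added after the values had been seen. All 5 tested names of this list rose in KO, 2 rose in KI, the difference lay above 0 in 5 of 5 and had an unadjusted p under 0.05 in 3. Among all 421 miRNAs, 16.2% rose in KO, 15.4% rose in KI, 52.7% had a difference above 0 and 15.9% had such a p. The medians of the 5 names were 0.91 in KO, 0.42 in KI and 0.57 for the difference. miR-322-5p, the most abundant of them, was at 315, 196, 408, 400.4 and 326 CPM in WT and 510.0, 609, 627, 687 and 424 CPM in KO, with no overlap. It was at 473, 583 and 608 CPM (lowest, median and highest) in WT and 627, 771 and 941 CPM in KI, also with no overlap. It rose in KO by 0.80 ± 0.16 (edgeR, adjusted p = 0.000894) and in KI by 0.51 ± 0.14 (adjusted p = 0.0132), with a difference of 0.29 ± 0.22 (SE). miR-351-5p rose in KO by 0.91 ± 0.26 (edgeR, adjusted p = 0.0119), its KI effect was 0.10 ± 0.22 and its difference 0.81 ± 0.35 (SE). Groups do not overlap in this way for 69 of 421 miRNAs (16.4%) between KO and WT and for 48 of 421 (11.4%) between KI and WT.

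miR-342-3p reached its difference from the other side, through KI. miR-342 is hosted by Evl and is best known from blood cells. It stood at 891, 903, 1128, 1206 and 1003 CPM in WT and 919.6, 996, 924, 1191 and 842 CPM in KO, which overlapped over most of their range. Against this, the lowest, median and highest values of the KI batch were 1255, 1401 and 1498 CPM in WT and 817, 989 and 1105 CPM in KI, with no overlap. It fell in KI by 0.51 (SE 0.09, edgeR, adjusted p = 0.000332), its KO effect was -0.07 ± 0.10 (adjusted p = 0.609), from -0.10 to 0.07 over the 4 scalings, and the difference was 0.43 ± 0.14 (SE). Without KO replicate 4 the difference was 0.26, the lowest of the fits that left out a library, and the highest was 0.51. The WT libraries of the KI batch, at 1389.6 ± 90.2 CPM (SD, n = 6), lay above every library of the other groups, with KI at 976 ± 104 (SD, n = 6), WT of the KO batch at 1026 ± 138 (SD, n = 5) and KO at 975 ± 133 (SD, n = 5).

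Among miRNAs with the higher KI effect, miR-124-3p had the lowest p. miR-124 is the miRNA of neurons, and it is also found in germ cells. Its CPM were 161, 181, 89.6, 111 and 141 in WT and 128, 98.3, 104, 86.1 and 110.3 in KO libraries of the KO batch. In the KI batch the lowest, median and highest CPM were 140.2, 163 and 203 in WT and 173, 234 and 292 in KI. KO libraries lay in or below the lower part of the WT range and KI libraries in or above the upper part of theirs, with overlap in both batches. Its KO effect was -0.37 ± 0.18 (edgeR, adjusted p = 0.114), it rose in KI by 0.45 ± 0.15 (adjusted p = 0.0287), and the difference was -0.82 ± 0.23 (SE) with a 95% interval of -1.29 to -0.34. It was counted at 3 loci. Without KI replicate 2 the difference was -0.87 (edgeR, adjusted p = 0.0621), and over all fits that leave out a library it ran from -0.94 to -0.68. The other arm, miR-124-5p, had a difference of -0.09 ± 0.39 (SE) at CPM of 7.55 to 34.4.

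miR-139-5p, hosted by Pde2a, rose in KI by 0.98 ± 0.21 (edgeR, adjusted p = 0.00147), with CPM of 3.03, 5.82 and 7.03 (lowest, median and highest) in WT and 7.25, 11.6 and 13.3 in KI, which did not overlap. Its CPM in the KO batch were 35.4, 38.8, 35.1, 29.0 and 43.3 in WT and 60.0, 38.1, 38.0, 28.7 and 41.0 in KO, and the KO effect was 0.19 ± 0.19 (edgeR, adjusted p = 0.483). The difference was -0.79 ± 0.29 (SE), and the levels of both groups of the KO batch lay above all libraries of the KI batch. miR-295-3p, of the cluster that marks embryonic stem cells, rose in KI by 0.43 ± 0.14 (edgeR, adjusted p = 0.0234), had a KO effect of -0.15 ± 0.16 and a difference of -0.58 ± 0.21 (SE). Of the 18 names of that cluster only 2 were tested, and miR-294-3p, the other, had a difference of -0.52.

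Names of the Sfmbt2 type mostly had the higher KI effect. The Sfmbt2 cluster is a tandem array of miR-297, miR-466, miR-467 and miR-669 genes in an intron of the imprinted gene Sfmbt2, known from placenta, and its names share much sequence. Of 52 tested names of these families, 17 fell and 0 rose in KO, and 15 fell and 2 rose in KI. Among all 421 miRNAs, 20% fell and 16.2% rose in KO, and 20.7% fell and 15.4% rose in KI. The difference lay below 0 for 44 of the 52, against 199 of 421 miRNAs, and 9 had an unadjusted p under 0.05, all 9 with the higher KI effect. Of all 421 miRNAs, 15.9% had such a p, 6.89% with the higher KI effect. The medians were -0.24 in KO, -0.03 in KI and -0.18 for the difference. Under the other 3 scalings, the difference lay below 0 for 43 to 45 names, while the KI falls dropped to 9 with size factors of DESeq2, 8 with TMM within each batch and 4 with library totals. The median KI effect was 0.02 and 0.07 in the last 2 of these, so that its sign is not settled, and the KO falls dropped to 10 with library totals. Of all 421 miRNAs, 71, 68 and 50 fell in KI under these scalings in turn, and 49 fell in KO with library totals. Reads of these names can be shared between near-identical copies. miR-466a-3p, miR-466e-3p and miR-466p-3p had counts within 5% of each other, as had miR-297b-3p and miR-297c-3p, so that the 52 names are fewer independent measurements.

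miR-297a-3p stood at 172, 186, 188, 168 and 184 CPM in WT and 106, 128, 118, 123 and 102 CPM in KO, so that every KO library lay below every WT library. For the KI batch the lowest, median and highest CPM were 169, 188 and 203 in WT and 125, 163 and 172 in KI, which overlapped. It fell in KO by 0.64 (SE 0.10, edgeR, adjusted p = 5.97e-05) and in KI by 0.25 (SE 0.09, adjusted p = 0.0317), and the difference was -0.38 ± 0.13 (SE). miR-669m-5p fell in KO by 0.40 (SE 0.14, edgeR, adjusted p = 0.0343), had a KI effect of 0.22 ± 0.12 (adjusted p = 0.187) and a difference of -0.61 ± 0.18 (SE), and its other arm, miR-669m-3p, had -0.62 ± 0.30 (SE). miR-669b-5p had effects of -0.37 ± 0.18 in KO and 0.30 ± 0.15 in KI, neither past the test, and a difference of -0.67 ± 0.23 (SE). At the other end of these families, miR-669p-3p had a difference of 0.88 ± 0.73 (SE).

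**Figure D3:**
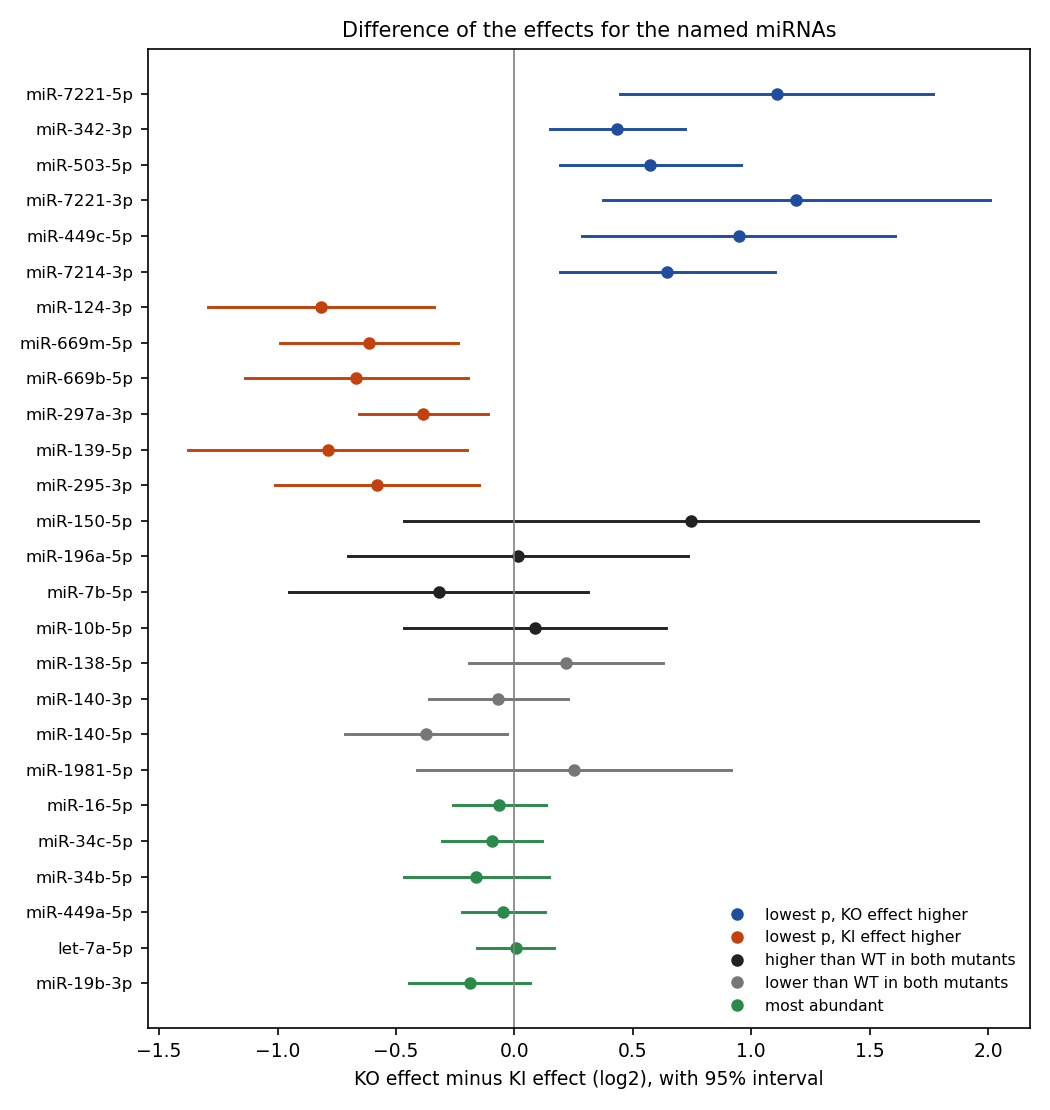
KO effect minus KI effect (x axis, log2) of the 26 named miRNAs, with points for the estimate and lines for the 95% interval, coloured by the part of the naming rule. The 12 miRNAs chosen by the lowest p have intervals that leave out 0, and the 6 most abundant ones lie within -0.19 to 0.00 with lines shorter than those of most of the others.

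The 8 miRNAs named for large changes in both mutants had differences of -0.37 to 0.75, and miR-140-5p was the 1 among them with an unadjusted p under 0.05. miR-140-3p, hosted by Wwp2 and known from cartilage, stood at 562, 648, 710.1, 614 and 818 CPM in WT and 309, 291, 277, 284 and 311 CPM in KO. Its lowest, median and highest CPM in the KI batch were 889.8, 1003 and 1066 in WT and 385, 442 and 579 in KI. Neither mutant overlapped with its WT. It fell by 1.19 in KO (SE 0.11, edgeR, adjusted p = 3.56e-08) and by 1.12 in KI (SE 0.09, adjusted p = 9.79e-09), and the 95% interval of the difference was -0.36 to 0.23. The other arm, miR-140-5p, fell by 1.31 in KO and by 0.93 in KI with no overlap in either batch, and its difference was -0.37 ± 0.17 (SE) (edgeR, unadjusted p = 0.0333, adjusted p = 0.265). The levels of WT libraries differed between batches, with 301 ± 40.3 CPM (SD, n = 5) of miR-140-5p in the KO batch and 131 ± 8.13 CPM (SD, n = 6) in the KI batch.

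miR-138-5p, known from neurons and counted at 2 loci, stood at 340.2, 325, 476, 406 and 447 CPM in WT and 137, 122, 235, 218 and 195 CPM in KO, and at 525.5, 566 and 592 CPM (lowest, median and highest) in WT and 182, 218 and 273 CPM in KI. Neither mutant overlapped with its WT. It fell by 1.14 in KO (SE 0.15, edgeR, adjusted p = 9.58e-06) and by 1.36 in KI (SE 0.13, adjusted p = 7.24e-08), with a difference of 0.22 ± 0.20 (SE). miR-1981-5p fell by 0.74 in KO (edgeR, adjusted p = 0.0261) and by 0.99 in KI (adjusted p = 0.00109), with overlap in both batches and a difference of 0.25 ± 0.32 (SE).

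On the rising side, miR-10b-5p and miR-196a-5p are made from the Hox clusters. miR-10b-5p stood at 532, 266, 499, 577 and 453 CPM in WT and 947, 1217, 964, 855 and 581 CPM in KO, and at 450.4, 574 and 630.0 CPM (lowest, median and highest) in WT and 723, 1027 and 1451 CPM in KI. Both mutants lay above their WT, in KO by a small gap. It rose by 0.97 ± 0.20 in KO (edgeR, adjusted p = 0.00103) and by 0.89 ± 0.18 in KI (adjusted p = 0.000946), with a difference of 0.09 ± 0.27 (SE). miR-196a-5p rose by 1.04 ± 0.27 in KO (edgeR, adjusted p = 0.00618) and by 1.02 ± 0.22 in KI (adjusted p = 0.00165), and its difference of 0.01 ± 0.35 (SE) had an interval of -0.70 to 0.73 and ran from -0.04 to 0.06 over the scalings. miR-7b-5p rose by 0.85 ± 0.25 in KO (edgeR, adjusted p = 0.0119) and by 1.17 ± 0.18 in KI (adjusted p = 3.7e-05).

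miR-150-5p, a miRNA of mature lymphocytes, is the case where a call in both mutants rests on little. It stood at 7.09, 3.88, 24.01, 22.6 and 4.60 CPM in WT and 41.5, 64.7, 25.7, 48.8 and 12.7 CPM in KO, and at 7.20, 9.45 and 14.5 CPM (lowest, median and highest) in WT and 10.8, 17.5 and 27.2 CPM in KI. It rose by 1.63 ± 0.45 in KO (edgeR, adjusted p = 0.008) and by 0.88 ± 0.38 in KI (adjusted p = 0.0793), with a difference of 0.75 ± 0.59 (SE). The KI call was lost without KI replicate 4, 5 or 6 and without WT replicate 2, 3, 4 or 5 of the KI batch, with effects of 0.73 to 0.89.

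Several families and clusters had calls in the same direction in both mutants. X-linked testis miRNAs, a set of germ cell genes on the X chromosome such as miR-741 and miR-743a, had 34 tested names, of which 24 fell and 0 rose in KO and 24 fell and 0 rose in KI, where 20% and 20.7% of all 421 miRNAs fell. Their medians were -0.37 in KO, -0.33 in KI and -0.04 for the difference, from -1.28 for miR-742-5p to 0.91 for miR-742-3p, the arms of 1 hairpin. With library totals the falls were 16 in KO and 15 in KI. Under that scaling 117 of all 421 miRNAs rose and 49 fell in KO, and 92 rose and 50 fell in KI. The imprinted Dlk1-Dio3 cluster, which is expressed from the maternal copy in embryo and brain, had 22 tested names, of which 4 rose in KO and 10 rose in KI and 0 fell, where 16.2% and 15.4% of all 421 rose. Its medians were 0.65 in KO, 0.62 in KI and 0.03 for the difference, which ran from -0.03 to 0.07 over the scalings and from -0.07 to 0.27 over the fits that left out a library, the highest being without WT replicate 4 of the KO batch. miR-183-5p, miR-96-5p and miR-182-5p, made from a single transcript and known from sense organs, fell in both mutants, with medians of -0.27 in KO and -0.52 in KI, though with library totals only 1 of the 3 fell in KO. Of the let-7 and miR-98 family, 11 names were tested, with 1 rise and 1 fall in KO, 0 rises and 1 fall in KI and a median difference of 0.10. With library totals these became 3 rises and 0 falls in KO and 2 rises and 0 falls in KI.

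For the remaining families, the counts stand beside 16.2% of all 421 miRNAs that rose and 20% that fell in KO, and 15.4% that rose and 20.7% that fell in KI. Counts with library totals stand beside 117 of the 421 that rose and 49 that fell in KO, and 92 that rose and 50 that fell in KI. Of 15 tested names of the miR-15 and miR-16 family, which takes in miR-322 and miR-503, 5 rose and 2 fell in KO and 6 rose in KI, with a median difference of -0.09. Of 19 names of the miR-17 to miR-92 clusters, 1 rose and 2 fell in KO and 2 fell in KI, with a median difference of 0.09, and with library totals 5 rose and 0 fell in KO. In the miR-30 family 11 names were tested, of which 2 rose and 1 fell in KO and 3 rose in KI, and with library totals 7 rose in each mutant. In the miR-181 family 1 of 6 rose in KO and 3 in KI, and in the miR-23, miR-27 and miR-24 clusters 2 of 6 rose in each, counts too small to set apart from these shares. In the miR-200 and miR-141 family, known from epithelia, 2 of 6 fell in KO and 2 in KI. Of 4 tested names of the Hox clusters, 3 rose in each mutant, with medians of 0.92 in KO and 0.74 in KI.

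**Figure D4:**
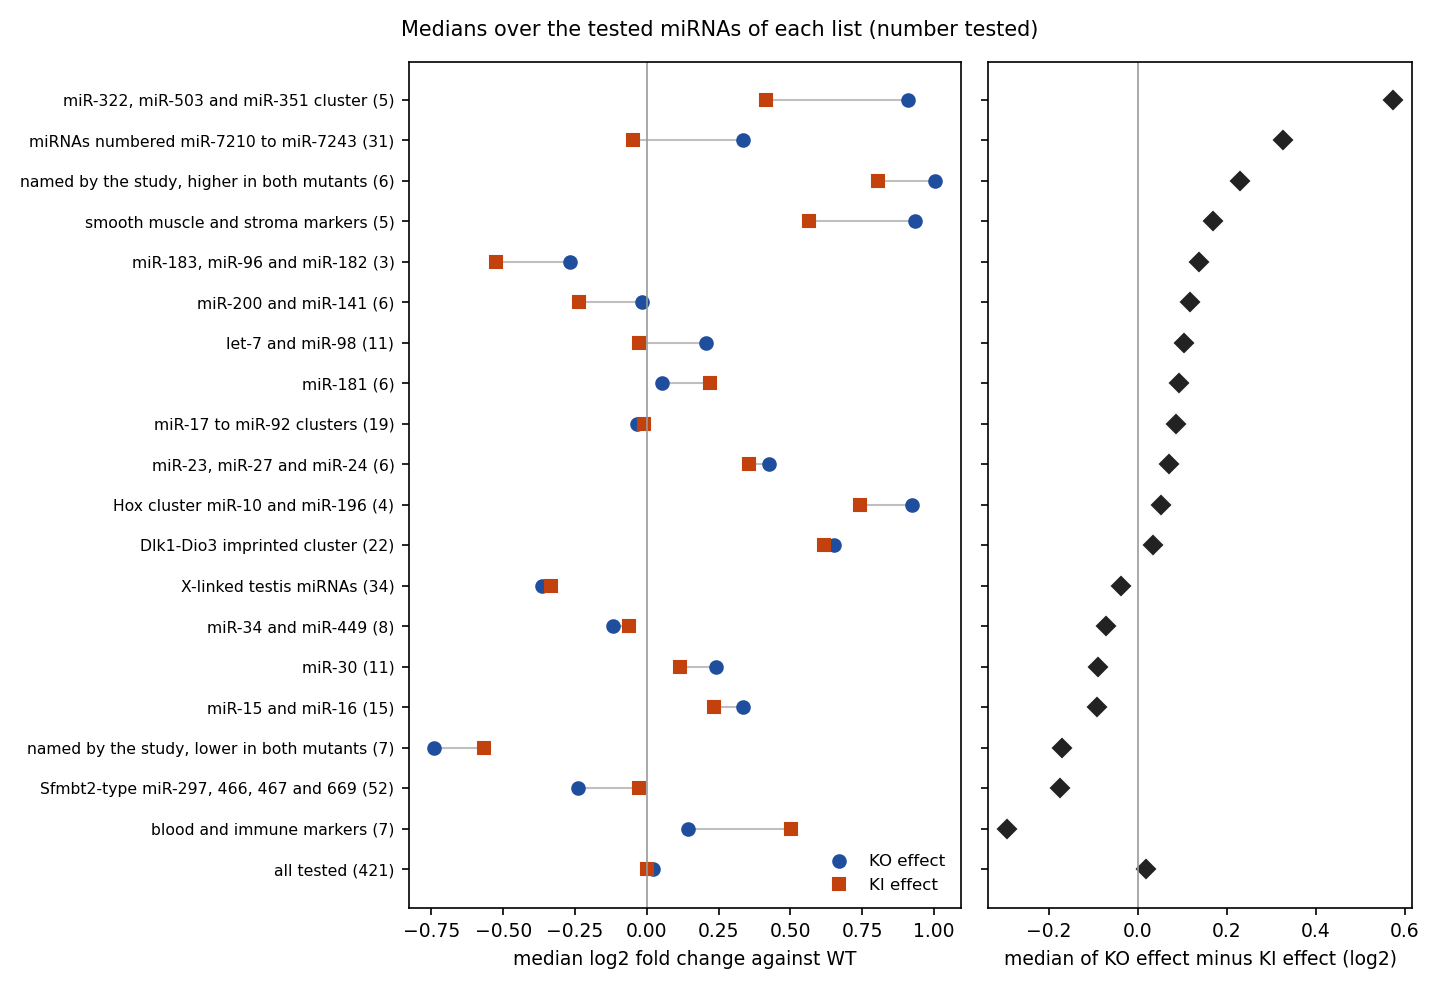
Median log2 fold change of the tested miRNAs of each list in KO (circles) and KI (squares), and the median of the difference (diamonds), with the number of tested names in brackets and all 421 miRNAs in the lowest row. The X-linked and Dlk1-Dio3 names have nearly equal medians in KO and KI, while miR-7210 to miR-7243 have medians of 0.33 and -0.05.

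Some markers of other cells rose in both mutants as well. Among all 421 miRNAs, 16.2% rose and 20% fell in KO, and 15.4% rose and 20.7% fell in KI. Of 5 markers of smooth muscle and stroma, such as miR-143-3p and miR-145a-5p, 4 rose in KO and 4 rose in KI, with medians of 0.94 and 0.57 and a median difference of 0.17. Their summed CPM ran from 634 to 1851 in WT and from 1806 to 3740 in KO, and from 1200.3 to 2038 in WT and from 2061 to 4778 in KI, and 0 of the 5 markers were at 0 in any group. For miR-126a-3p, the tested marker of endothelium, the difference was 0.40, called in neither mutant, and the summed CPM of endothelium markers ran from 139 to 428 over the groups and overlapped. Of 7 tested markers of blood and immune cells, 3 rose in KO and 5 in KI, and their median difference was -0.29. Their summed CPM ran from 4122 to 5186 in WT and from 4478 to 6271 in KO, and from 2995 to 4014 in WT and from 3732 to 5985 in KI. miR-142a-3p, the most abundant of them, rose in KI by 0.50 ± 0.11 (edgeR, adjusted p = 0.00165), had a KO effect of 0.09 ± 0.12 (adjusted p = 0.589) and a difference of -0.41 ± 0.16 (SE). Of the 3 germ cell markers, 2 fell in KO, miR-34c-5p and miR-34b-5p, and 0 fell in KI. With library totals 1 rose and 1 fell in KO and 1 rose in KI. Under that scaling 117 of all 421 miRNAs rose and 49 fell in KO, and 92 rose and 50 fell in KI. The part of cells other than germ cells in the rises of miR-150-5p, miR-10b-5p and the miR-322 cluster was not tested.

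The largest difference of all belonged to miR-1a-3p, a miRNA of striated muscle, at 2.29 ± 1.01 (SE) (edgeR, adjusted p = 0.255), and its groups held libraries that stood apart. It stood at 6.08, 13.6, 7.39, 11.3 and 23.9 CPM in WT and 126, 24.8, 29.0, 8.61 and 25.4 CPM in KO, where the highest KO library stood far above the other 4. The KI batch held it at 38.8, 515 and 658 CPM (lowest, median and highest) in WT and 33.5, 325 and 456 CPM in KI, and in both groups the lowest library was replicate 2, at 38.8 and 33.5 CPM. miR-1a-3p was called in neither mutant (edgeR, adjusted p = 0.114 in KO and 0.481 in KI). Of the 5 muscle markers, 3 were tested and 2 were at 0 in each group.

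The lists that the study names as lower or higher in both mutants were chosen on these samples and are no independent evidence of direction. Of 7 tested names of the lower list, 6 fell in KO and 6 in KI, with medians of -0.74 and -0.57. Of 6 tested names of the higher list, 5 rose in KO and 5 in KI, with medians of 1.01 and 0.81. Among all 421 miRNAs, 20% fell and 16.2% rose in KO, and 20.7% fell and 15.4% rose in KI. In the lower list the difference was lowest for miR-32-5p, which fell by 1.12 in KO and by 0.45 in KI, the difference being -0.67 ± 0.25 (SE) (edgeR, adjusted p = 0.202). Of miRNAs that bypass Drosha or Dicer only miR-320-3p and miR-451a were tested. miR-320-3p, made without Drosha, rose in KO by 0.96 ± 0.36 (edgeR, adjusted p = 0.0437), had a KI effect of -0.42 ± 0.27 (adjusted p = 0.269) and a difference of 1.37 ± 0.45 (SE), at CPM of 3.21 to 24.8. miR-451a, made without Dicer in red blood cells, had a difference of -0.36 ± 0.65 (SE).

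Each library was last placed along the effect of the other mutant, with weights from libraries that were not scored. A score of 0 is the mean of the WT libraries of the same batch, and a score of 1 is a shift as long as the whole effect of the other mutant. Along the KI effect, the 5 KO libraries scored 0.53 to 0.73 with a mean of 0.65, and the WT libraries of their batch -0.27 to 0.27. Along the KO effect, the 6 KI libraries scored 0.26 to 0.65 with a mean of 0.43, and the WT libraries of their batch -0.12 to 0.16. In both batches every mutant library lay above every WT library. The weights hold measurement error, so the scores are descriptions and do not measure the ratio of the true effects.

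**Figure D5:**
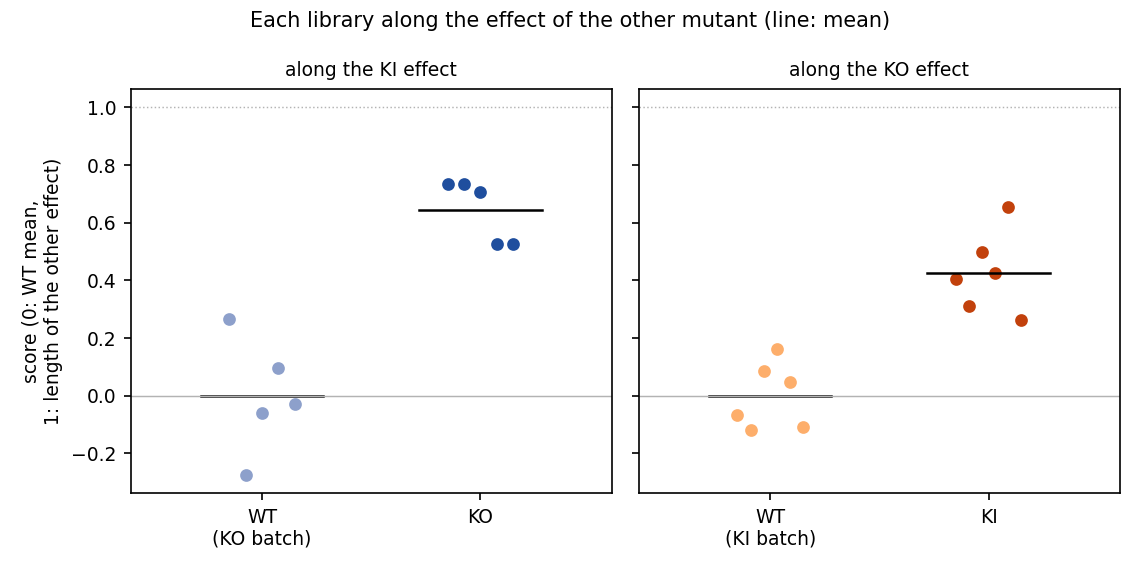
Score of each library along the effect of the other mutant (y axis, 0 at the WT mean of the batch and 1 at the full effect of the other mutant), as points with the group mean as a line. The KO libraries lie at 0.53 to 0.73 and the KI libraries at 0.26 to 0.65, with no overlap with the WT libraries of their batch.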

How the data were processed

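Whole-number counts of reads per mature miRNA name were used as deposited. According to the labels and the published methods, the authors removed adapters with cutadapt 3.4, aligned reads to GRCm38 (mm10) with Bowtie2 2.4.2 in local mode with many alignments allowed per read, and counted them by strand on miRBase features with featureCounts of Subread 2.0.1. How reads with several alignments were counted is not given in the sources used here, so levels of names with several loci are uncertain. The table holds 22 columns of per-sample values and 0 were left unused. Groups and batches follow the labels, which name them KO with WT and KI with WT.

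Counts were fitted with edgeR 4.0.16 in R 4.3.3 (TMM, filterByExpr, quasi-likelihood F-test) over all 22 libraries in 4 groups, with both effects and their difference as contrasts. The authors fitted each batch on its own with DESeq2. The difference needs both batches in 1 fit, and the single-batch fits were an alternative. Calls were made at an adjusted p (Benjamini-Hochberg) under 0.1, as the study did. Standard errors and 95% intervals come from the fit, with a biological coefficient of variation of 0.172. Log2 fold changes use a prior count of 0.125. The smallest chi-square per degree of freedom between replicates was 7.28, so no library was a repeat of another. The fit was tested on simulated counts of 421 miRNAs, of which 200 were changed by 1 on the log2 scale. It recovered 73% of the changes, 4.58% of its calls were false, and 95.5% of its intervals held the true value. The setting differs from the data, where 20 of the 421 differences were over 1 in size. The simulated counts were also drawn for each miRNA on its own, while names such as miR-7210 to miR-7243 moved together. These percentages therefore do not give the share of real differences that the test would find here. DESeq2 1.42.0, limma 3.58.1 and Python 3.11.15 with pandas 2.3.3 were used for alternatives, lists and figures.

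Among miRNAs with at least 10 CPM in a group of each batch, those named are the 6 with the lowest p for the difference in each direction, the 4 highest and 4 lowest by the sum of both effects among those called in both, and the 6 most abundant. The other arm and the extremes of a list may stand beside them. Members and lists were chosen with earlier results of these data known, and 3 of the 25 lists, miR-7210 to miR-7243, the miR-322 cluster and the miR-290 to miR-295 cluster, were added after the values were seen. miR-7216-5p, miR-7217-3p, miR-34a-5p, miR-322-5p, miR-351-5p, miR-1a-3p and miR-3068-3p were named after their values were seen. Sequences are from RefSeq (GRCm38.p6), coordinates are those of the deposited table and host genes are from GENCODE vM21. Alternatives were other scalings and filters, other tools, a replicate block, 1 name per set of like counts, and leaving out each library. Without both libraries numbered 2 of the KI batch was added after the values were seen.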

Additional observations from a re-analysis of the deposited data

Results flagged for a closer look

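In 4 of 112 combinations of a named miRNA and a group, a single library stood apart from the others, where 5.6 are given by chance (about 1 in 20). The gap to the nearest library, as a share of the whole range of the group on the log2(CPM + 1) scale, was 0.681 for miR-669m-5p in WT replicate 3 of the KI batch, at 6.34 where the others lay at 5.97 to 6.09. It was 0.634 for miR-297a-3p in KI replicate 5, at 6.98 where the others lay at 7.27 to 7.44. It was 0.780 for miR-34b-5p in WT replicate 4 of the KO batch, at 14.32 where the others lay at 14.57 to 14.64. It was 0.759 for miR-19b-3p in KO replicate 2, at 13.75 where the others lay at 14.02 to 14.10. The screen did not take in miR-1a-3p. Its replicates 2 of the KI batch, at 38.8 CPM in WT and 33.5 CPM in KI, were the lowest of groups with medians of 515 and 325 CPM. The count of flags therefore does not cover all miRNAs described here.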

How the results depend on the processing

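The call of 0 miRNAs for the difference held with DESeq2, limma voom, 3 other scalings, no filter, a stricter filter and 1 name per set of like counts. Leaving out each library gave 0 to 26, with 26 without KI replicate 2 and 1 without WT replicate 1 of the KI batch. The cause was not tested. A fit with the replicate number as a block called 25 miRNAs, 21 of them with the higher KO effect, and 22 of the 25 were among the 26. Whether the numbers mark shared animals or days is not given in the labels: deviations of same-numbered libraries correlated over 0.1 in 5 of 11 pairs (-0.11 to 0.52), and 4 of 11 were best with their own number, among them numbers 2, 3 and 6 of the KI batch (0.52, 0.42 and 0.24). Leaving out each library gave 122 to 171 calls in KO, 125 to 165 in KI and 72 to 90 in both in the same direction. Fits of each batch on its own called 140 in KO and 147 in KI. With no filter, 124 were called in KO, 111 in KI and 52 in both in the same direction, where 1134 names were tested. With a stricter filter the mean score of the KO libraries along the KI effect was 0.815. With that filter 144 were called in KO and 123 in KI, of which 75 rose and 48 fell, and 71 of the 144 fell in KO. TMM within each batch gave 79 rises and 68 falls in KI. The difference of let-7a-5p, near 0, ran from -0.12 to 0.06 over the fits that left out a library, and none of the effects of the 8 miRNAs named as called in both changed sign. Leaving out a library turned the sign of the median difference of the miR-15, let-7, miR-17, miR-30, miR-181, miR-23, miR-200, miR-183, X-linked, Dlk1-Dio3, Hox and stroma lists. The depth of the KO batch limits the scarce names.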

Other observations

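miR-3068-3p had the largest KI effect in size of the 421 tested miRNAs and was picked out for it after the values were seen. It stood at 5.06, 14.6, 11.1, 18.5 and 20.3 CPM in WT and 4.62, 8.86, 8.94, 12.9 and 12.7 CPM in KO libraries, and at 29.9, 41.0 and 64.4 CPM (lowest, median and highest) in WT and 10.2, 11.8 and 16.3 CPM in KI libraries, where the groups did not overlap. It fell by 1.73 in KI (SE 0.22, edgeR, adjusted p = 4.96e-06), its KO effect was -0.58 ± 0.36 (adjusted p = 0.22), and the difference was 1.15 ± 0.42 (SE) (adjusted p = 0.202). The range of WT libraries of the KO batch took in that of the KI libraries, and it lay below all WT libraries of the KI batch. On GRCm38 it is at chr12:87437685-87437706, in an intron of Alkbh1 and in an exon of the gene Mir3068.

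The replicates numbered 2 in the KI batch were alike in more than 1 respect. WT replicate 2 and KI replicate 2 were the highest libraries of their groups for miR-7217-3p, miR-7221-5p and miR-449c-5p and the lowest of their groups for miR-1a-3p and miR-139-5p. The 31 names of miR-7210 to miR-7243 summed to 60574 CPM in the first and 60368 CPM in the second, the highest of their groups. What these libraries share was not tested.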
